A study of Arabidopsis thaliana with 24 samples.

Results

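Seedlings of the Arabidopsis thaliana mutant ino80 were compared with wild-type seedlings after 1 h at 27 °C, gene by gene across the transcriptome. Of the 24 RNA-seq libraries of the series, 6 enter this comparison, 3 of the mutant and 3 of the wild type. Expression was deposited as TPM, the share of a library's transcripts that a gene holds after correction for length, for 23390 genes. The 19190 genes that reached 1 TPM in at least 3 of the 12 libraries of the 1 h table were tested, and the other 4200 were not. The mutant line was ino80-5 in the ecotype Col, and the wild type was Col. All seedlings were 7 days old and had been raised at 21 °C in short days before the move to 27 °C for 1 h, and libraries of both genotypes kept at 21 °C for that hour, or sampled after 12 h, serve as further points of reference. The mutant is a single allele whose lesion the labels do not describe. No label ties a replicate to its own culture, and p-values here measure the spread between these libraries, which may be technical.

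INO80 is the ATPase of a complex that moves nucleosomes along DNA and acts on nucleosomes that carry the histone variant H2A.Z, which the related SWR1 complex installs. In plants, H2A.Z nucleosomes have been linked to the response to ambient temperature. Mild warmth raises transcripts of heat shock proteins, the chaperones that keep other proteins folded, and drives stem elongation through PHYTOCHROME INTERACTING FACTOR (PIF) transcription factors and the hormone auxin.

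The ino80 libraries at 27 °C held an estimated 15.92 to 18.4 M counted fragments and the Col libraries 21.8 to 25.1 M, so the mutant was the less deeply sequenced group. Pearson correlations of log2(TPM + 1) between replicates were 0.9943 to 0.9952 in ino80 and 0.9948 to 0.9952 in Col at 27 °C. The first principal component of the 12 libraries, with 38.9% of the variance, separated the genotypes, and the second, with 38.2%, separated the temperatures. On the third, with 5.47%, Col replicate 2 at 21 °C stood apart, at 24.78 against -6.4 and -1.63 for the other Col libraries at 21 °C, and it was also the least deeply sequenced of the 12 (13.25 M fragments). The main counts that use 21 °C are also given without it. The INO80 transcript itself was at 10.9, 11.6 and 11.4 TPM in ino80, against 16.7, 16.4 and 14.4 TPM in Col. Every ino80 library lay below every Col library, with a log2 fold change of -0.45 ± 0.08 (SE; adjusted p = 5.8e-04), so transcript from the gene was still detected in the mutant. Summed markers of photosynthetic shoot tissue were at 75790 to 80520 TPM in ino80 and 76630 to 78370 TPM in Col at 27 °C. Of these 6 genes 0 were called by limma, and 1, the Rubisco gene RBCS3B, had an unadjusted p under 0.05 (0.17, adjusted p = 0.068). Of 9 tested root markers 1 was higher in ino80, the beta-glucosidase gene PYK10 (0.30 ± 0.05), and 4 were lower, among them the root hair genes PRP3 (-0.83) and COBL9 (-0.54). The call of EXPA7 (-0.36), also lower, was lost in 6 alternatives. PHT1;1 (-0.72), lower too, shares a stretch of 97.7% identity with AT5G43370. Of 7 guard cell markers 2 were higher and 1 was lower. Of 8 floral organ markers only PI was tested, and it was higher (1.29 TPM in ino80, 0.467 TPM in Col). The root, guard cell and floral sums were 2038 to 2142, 187.1 to 209.6 and 1.515 to 1.75 TPM in ino80, against 1721 to 1881, 167.5 to 189.4 and 0.7508 to 1.056 TPM in Col, and their part in the results was not tested.

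At 27 °C, 7183 of the 19190 genes (37.4%) differed between ino80 and Col at an adjusted p under 0.05 in limma, which is what "called" means throughout. Of these, 3277 genes (17.1%) were higher in ino80 and 3906 (20.4%) were lower. Fold changes are differences of log2(TPM + 1), ino80 minus Col, given with their SE, and this scale understates the change of genes of low expression. Most differences were small, with a median size of 0.40 among the higher genes and 0.40 among the lower ones. A difference of at least 1, a doubling or halving on this scale, was reached by 213 of the higher genes (1.11% of those tested) and 222 of the lower ones (1.16%), and at least 2 by 34 and 13. Together these are 435 genes at a difference of at least 1 (2.27%). The 3 ino80 libraries lay above the 3 Col libraries for 4692 genes (24.5%) and below them for 5365 (28.0%). The share called grew with expression, being 26.1% among genes under 1 TPM and 57.2% among genes over 100 TPM. On each of the 5 nuclear chromosomes genes were called in both directions, with at most 17.9% higher and at least 19.1% lower. The plot of all genes shows the called genes on both sides of the line at 0 over the whole range of expression. The balance of the directions depended on scaling, since scaling by median of ratios gave 3973 higher and 3756 lower genes.

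**Figure D1:**
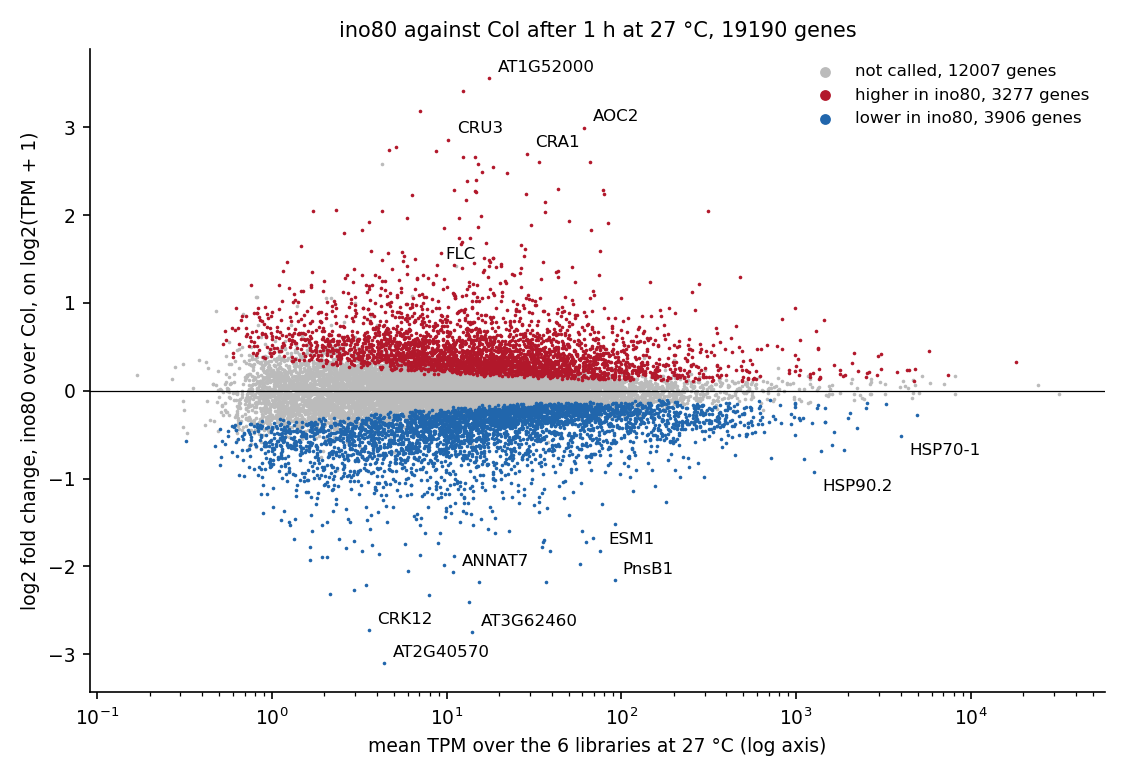
Log2 fold change of ino80 over Col after 1 h at 27 °C (vertical axis, on log2(TPM + 1)) against the mean TPM over the 6 libraries (horizontal axis, log scale), 1 point per gene for 19190 genes. Red points are the 3277 genes higher in ino80, blue points the 3906 lower genes, grey points were not called, and some of the most different genes are named.

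The 12 largest increases in ino80 were of a jasmonate synthesis gene, 2 seed storage genes, 3 chloroplast genes and 6 others. The mannose-binding lectin gene AT1G52000 was at 34.0, 33.0 and 32.6 TPM in ino80, against 1.39, 2.26 and 2.15 TPM in Col, a log2 fold change of 3.56 ± 0.14 (adjusted p = 1.6e-10). AOC2, an allene oxide cyclase of jasmonate synthesis, was at 104, 109 and 116 TPM in ino80 and at 12.4, 11.7 and 14.8 TPM in Col (3.0 ± 0.08, adjusted p = 2.6e-12). The genotypes were far apart in both genes. Others among the 12 largest increases were AT3G03776, annotated as a hydroxyproline-rich glycoprotein (3.41 ± 0.14), the cupin gene AT5G39110 (3.18 ± 0.18), the cruciferin seed storage genes CRU3 (2.86 ± 0.34) and CRA1 (2.70 ± 0.11), and the uncharacterized AT5G42530 (2.73 ± 0.26) and AT1G68250 (2.67 ± 0.31). AT1G26380, a berberine-bridge-like oxidase gene, was uneven among the mutant libraries, at 11.7, 14.9 and 3.01 TPM in ino80, against 0.537, 0.147 and 0.426 TPM in Col. Its adjusted p of 0.0059 was 0.051 with robust eBayes. The last 3 of the 12 were the chloroplast-encoded genes ATCG00700 (2.74 ± 0.39), ATCG01070 (2.66 ± 0.28) and ATCG00300 (2.61 ± 0.32), of which ATCG00700 was listed at 0 in 2 Col libraries.

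The largest decreases included genes that were near 0 in the mutant. AT2G40570, annotated as an initiator tRNA phosphoribosyl transferase family gene, was at 0.217, 0.0342 and 0.118 TPM in ino80, against 7.42, 9.59 and 8.99 TPM in Col (-3.10 ± 0.13, adjusted p = 2.9e-10). CRK12, a cysteine-rich receptor-like kinase, was at 0.194, 0.184 and 0.247 TPM in ino80 and at 6.60, 6.67 and 7.69 TPM in Col (-2.72 ± 0.12). The mitochondrial carrier gene AT2G37890 (-2.26 ± 0.14) and the F-box gene AT3G58930 (-2.22 ± 0.13) also averaged under 1 TPM in ino80. PnsB1, a nuclear gene for a subunit of the chloroplast NDH complex, was the most highly expressed of the 12 largest decreases. It was at 30.0, 34.6 and 34.5 TPM in ino80, against 148, 152 and 150.4 TPM in Col (-2.15 ± 0.06, adjusted p = 6.2e-12). The rest were AT3G62460 (-2.75 ± 0.12), AT2G18630 (-2.40 ± 0.12), the GDSL lipase gene AT5G33370 (-2.33 ± 0.13), AT3G24100 (-2.18 ± 0.14), the methyltransferase gene AT5G38020 (-2.17 ± 0.10), the annexin gene ANNAT7 (-2.06 ± 0.17) and the cytochrome P450 gene CYP716A2 (-2.05 ± 0.19). PnsB1 overlaps a neighbouring gene by 231 bases, and AT3G62460 shares a stretch of 98.5% identity with AT3G62530, so reads of these pairs may not be told apart.

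**Figure D2:**
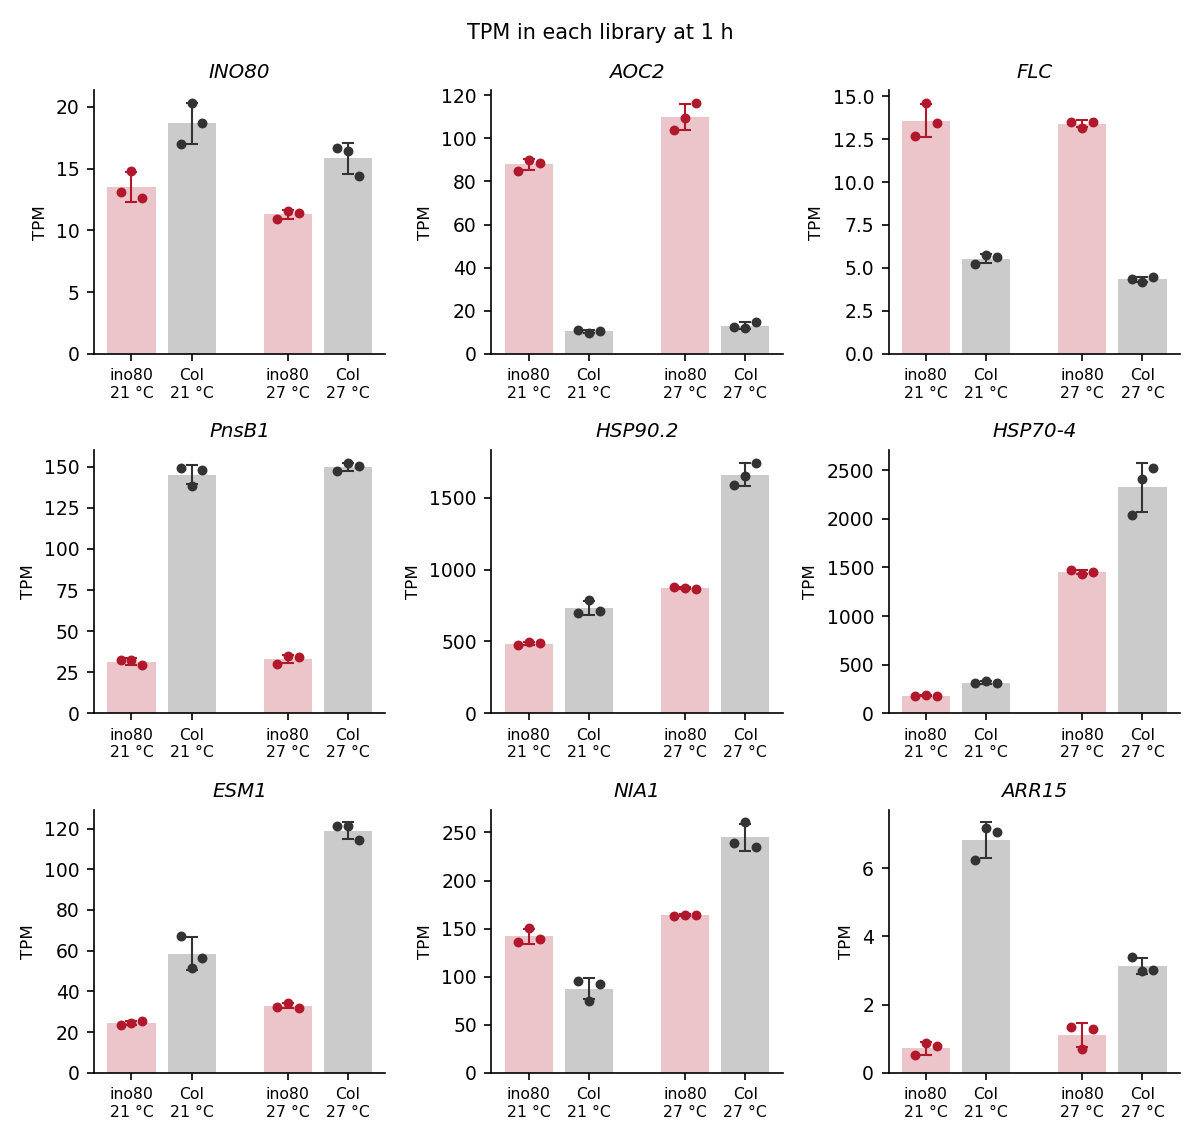
TPM of 9 genes in each 1 h library, for ino80 and Col at 21 °C and at 27 °C. Bars are means, error bars the SD (n = 3) and points single libraries; at 27 °C the ino80 libraries lie apart from the Col libraries in all 9 panels, above them for AOC2 and FLC and below them for the other 7.

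Gene groups are described by how many of their tested members were called in each direction, to be set beside the 17.1% of all genes called higher and the 20.4% called lower, and by their median log2 fold change, which was -0.01 over all tested genes. The plot of gene groups orders them by that median, which was 1.2 for seed storage genes and -0.66 for small heat shock protein genes at the 2 ends.

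**Figure D3:**
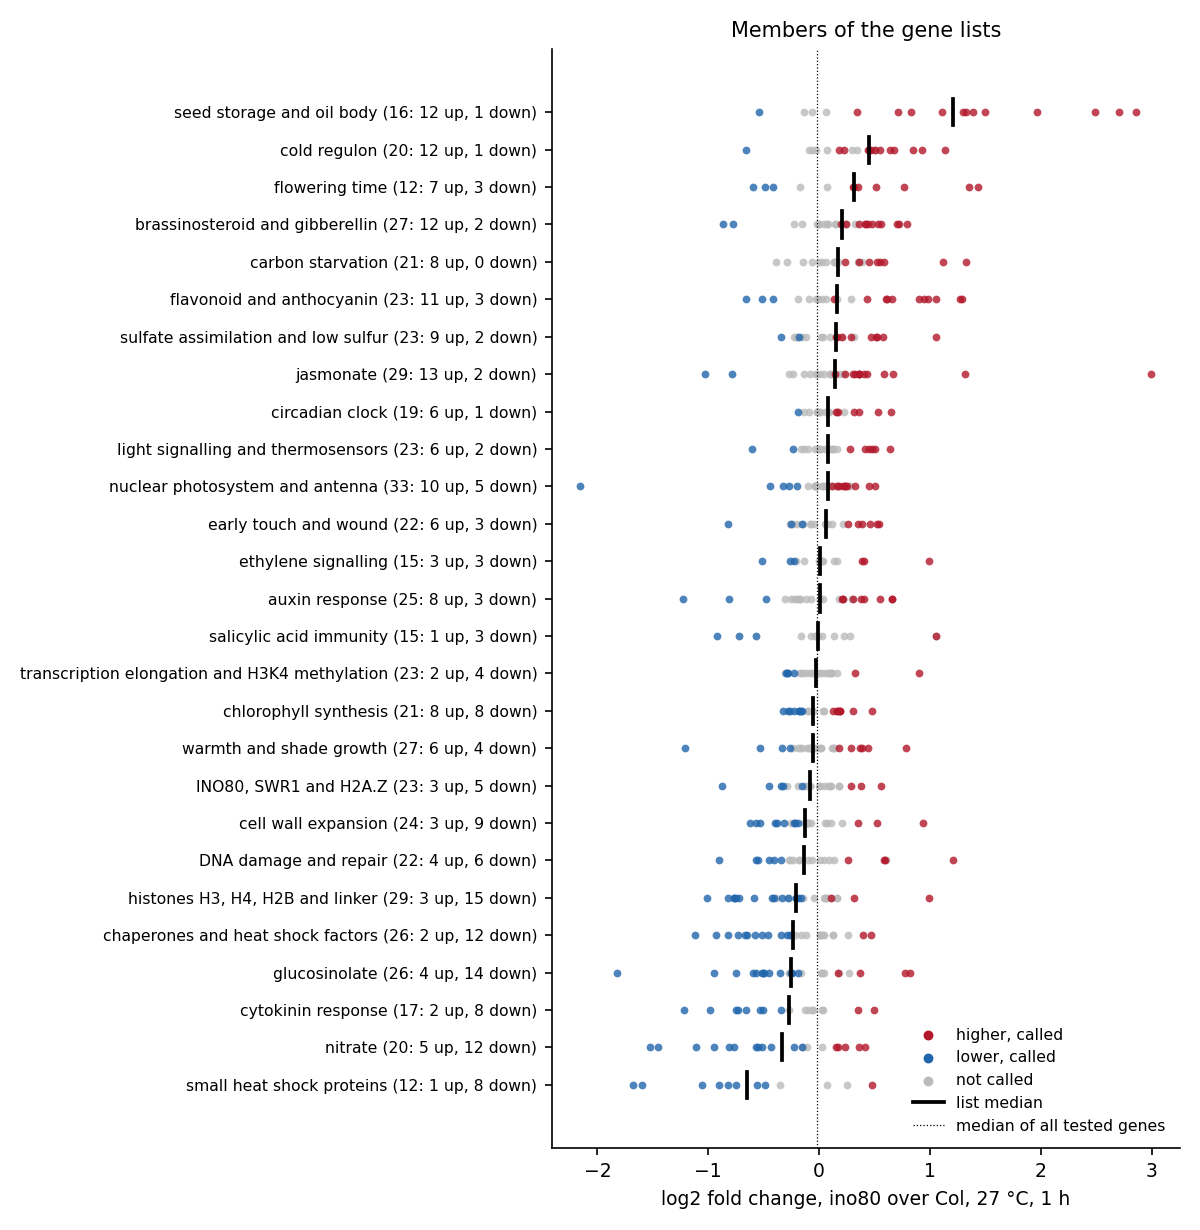
Log2 fold change of ino80 over Col after 1 h at 27 °C for the tested members of each gene group, 1 point per gene, with the groups ordered by their median. Groups of seed storage and cold genes lie to the right, and those of nitrate and small heat shock genes to the left.

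Heat shock genes were lower in the mutant at 27 °C. Of 12 small heat shock protein genes tested (14 listed), 8 were lower in ino80 and 1 was higher, with a median of -0.66. HSP17.6, a cytosolic small heat shock protein, was at 33.0, 28.9 and 34.0 TPM in ino80, against 85.1, 125 and 107 TPM in Col (-1.68 ± 0.12, adjusted p = 5.2e-08). HSP17.6B averaged 29.1 TPM in ino80 and 90.4 TPM in Col (-1.60 ± 0.14), and HSP17.8 averaged 141 TPM in ino80 and 265 TPM in Col (-0.90 ± 0.09). HSP17.4B (-0.75 ± 0.07), HSP23.5 (-0.82 ± 0.10), HSP23.6 (-1.06 ± 0.22), HSP17.4A (-0.49 ± 0.13) and HSP17.6A (-0.56) were lower too. HSP15.7 was the exception at 0.47, and HSP17.6C (-0.36), HSP18.2 (0.25) and HSP26.5 (0.07) were not called. In each of the 8 lower genes every ino80 library was below every Col library, as in 28.0% of all genes. The 8 were called from these same libraries, so this is no separate evidence. The call of HSP17.6A was lost in 11 alternatives (adjusted p up to 0.182, without Col replicate 2), and that of HSP15.7 without Col or ino80 replicate 3 (0.063 and 0.061).

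Among 26 tested genes of the larger chaperones and of the heat shock transcription factors that switch them on, 12 were lower in ino80, 2 were higher and the median was -0.24. The cytosolic chaperone HSP90.2 was at 877, 870.4 and 866 TPM in ino80, against 1586, 1654 and 1745 TPM in Col (-0.93 ± 0.05, adjusted p = 2.7e-09). HSP70-4 was at 1474, 1429.7 and 1454 TPM in ino80 and at 2040.4, 2413 and 2523 TPM in Col (-0.67 ± 0.06). HSP70-1, the most abundant of them, was at 3289.9, 3302 and 3233 TPM in ino80 and at 4577, 4643 and 4857 TPM in Col (-0.52 ± 0.05). The ino80 libraries were below all Col libraries in each of these 3 genes, as in 28.0% of all genes, and the mutant libraries differed little among themselves. The inducible HSP90.1 averaged 197 TPM in ino80 and 353 TPM in Col (-0.83 ± 0.08), the disaggregase HSP101 averaged 59.9 and 94.9 TPM in ino80 and Col (-0.65 ± 0.06), and the co-chaperone ROF2 averaged 152 and 229.7 TPM (-0.58 ± 0.08). Of the factors, the heat-induced HSFA2 was at 58.1, 56.2 and 56.1 TPM in ino80, against 97.6, 96.3 and 91.3 TPM in Col (-0.73 ± 0.08, adjusted p = 3.8e-06). HSFA1A, HSFA1B and HSFA1D, of the class that starts the heat response, were not called (0.04, -0.12 and 0.04), while HSFA1E was higher (0.47). The heat-induced genes MBF1C (-0.22) and DREB2A (0.13) were not called either.

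At 21 °C, where 6880 of all genes (35.9%) were called, heat shock genes were more often lower than higher in ino80 as well. Called lower were 7 of the 12 small heat shock genes and 15 of the 26 chaperone and factor genes (20.5% of all genes). Called higher were 2 of the 12 and 1 of the 26 (15.4% of all genes). Without Col replicate 2 at 21 °C, 7 and 13 were lower and 1 and 1 higher. HSP70-4 averaged 182 TPM in ino80 and 316 TPM in Col at 21 °C (-0.79), and the test of the difference between the temperatures gave 0.12 (adjusted p = 0.64). For HSP90.2 and HSP90.1 the deficit was larger at 27 °C than at 21 °C, by -0.34 (adjusted p = 0.022) and -0.57 (adjusted p = 0.018). HSP90.1 at 21 °C averaged 28.8 TPM in ino80 and 34.6 TPM in Col (-0.26). These 2 interaction calls were lost without Col replicate 2 or 3 or ino80 replicate 1 at 27 °C, and that of HSP90.2 also without Col replicate 3 at 21 °C or ino80 replicate 2 or 3 at 27 °C (adjusted p 0.050 to 0.062). The move to 27 °C raised 11 of the 12 small heat shock genes in ino80 and 11 in Col, and 21 and 19 of the 26 others, in contrasts that share libraries with the others and called 15.2% of all genes higher in ino80. For HSP17.6 the value at 27 °C minus that at 21 °C was 2.47 ± 0.12 in ino80 and 2.95 in Col.

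Histone genes were mostly on the lower side. Of 29 tested genes for histones and their chaperones, 15 were lower in ino80 and 3 were higher, with a median of -0.21. The histone H3 gene HTR2 was at 82.4, 84.4 and 77.2 TPM in ino80, against 144, 139 and 134 TPM in Col (-0.76 ± 0.06, adjusted p = 2.0e-07). HTR13, another H3 gene (-1.01 ± 0.10), the H2B genes HTB2 (-0.82 ± 0.07) and HTB1 (-0.42 ± 0.06) and the H2A genes HTA13 (-0.77 ± 0.06) and HTA10 (-0.40 ± 0.05) were lower as well. The linker histone HIS1-3, known as responsive to drought, went the other way, at 33.4, 33.8 and 34.6 TPM in ino80 and 16.5, 15.9 and 17.5 TPM in Col (0.99 ± 0.11). HTA11, which encodes H2A.Z, was at 14.97, 12.5 and 12.2 TPM in ino80, against 25.7, 27.4 and 22.3 TPM in Col (-0.88 ± 0.10, adjusted p = 7.9e-06), and HTA8, another H2A.Z gene, was lower by less (-0.32 ± 0.11). HTA9, which also encodes H2A.Z, was not called (-0.08). The call of HTA8 was lost with no filter on low TPM, with median-of-ratios scaling and without any of the 6 libraries but ino80 replicate 1 (adjusted p up to 0.161). The 3 higher calls among histones came to 1 without Col replicate 3 or ino80 replicate 1.

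Of 23 tested genes for INO80 and SWR1 subunits and H2A.Z, 5 were lower and 3 higher in ino80, shares of the same order as in all genes, with a median of -0.08. The 5 lower calls came to 3 without any 1 of the Col libraries or ino80 replicate 2. PIE1, the SWR1 ATPase, was lower (-0.34 ± 0.09), and the INO80 subunit gene ARP5 was higher (0.28 ± 0.09), but the call of ARP5 was lost without Col replicate 2 or 3 or without ino80 replicate 1 or 3. The INO80 subunit genes ARP4 (0.18), RIN1 (0.01) and EEN (-0.29) were not called. Among 23 genes of transcription elongation and H3K4 methylation, 4 were lower and 2 were higher (median -0.03). The H3K4 methyltransferase gene ATX4 averaged 11.1 TPM in ino80 and 5.45 TPM in Col (0.90 ± 0.11), whereas the 2 subunits of the histone chaperone FACT differed in direction, with SSRP1 higher (0.33 ± 0.05) and SPT16 lower (-0.28 ± 0.06). The 4 lower calls came to 2 without Col replicate 2. PIE1 and EEN overlap neighbouring genes by 340 and 316 bases.

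Of 22 tested DNA damage and repair genes, 4 were higher, 6 lower and the median was -0.14. The 2 listed genes of ribonucleotide reductase, which supplies nucleotides for DNA synthesis, were lower. TSO2 was at 47.5, 44.8 and 46.9 TPM in ino80, against 91.6, 91.8 and 80.5 TPM in Col (-0.91 ± 0.08, adjusted p = 4.6e-07), and RNR1 averaged 18.4 and 27.8 TPM in ino80 and Col (-0.57 ± 0.07). The damage-induced gene GMI1 was higher at 2.72 TPM in ino80 and 0.619 TPM in Col (1.21 ± 0.13), and the end-joining gene KU80 was higher (0.59 ± 0.08). The other higher members were SMR7 (0.59) and SOG1 (0.26). The other lower ones were POLA3 (-0.55), CYCB1;1 (-0.45), WEE1 (-0.41) and BRCA1 (-0.34). Of these other members, all but POLA3 lost their call in at least 1 alternative. The damage-induced gene PARP2 (-0.27) and the kinase genes ATM (0.09) and ATR (-0.10) were not called. GMI1 shares a stretch of 95.8% identity with AT3G25495, so its reads may be split. The 4 higher calls came to 2 without Col replicate 2 or 3 or ino80 replicate 1 or 3.

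Of the FLC family of flowering repressors, 5 of 6 tested were higher in the mutant. Of 12 tested flowering-time genes (16 listed), 7 were higher in ino80, 3 were lower and the median was 0.31. FLC, the repressor that vernalization silences, was at 13.5, 13.2 and 13.5 TPM in ino80, against 4.34, 4.17 and 4.49 TPM in Col (1.43 ± 0.08, adjusted p = 3.3e-09). Its relatives MAF5 (1.35 ± 0.14), MAF2 (0.77 ± 0.08), MAF3 (0.51 ± 0.09) and MAF4 (0.35) were higher too, while MAF1 was not called (0.07). SOC1, a floral integrator that FLC represses, was at 1.42, 1.47 and 1.23 TPM in ino80 and at 2.68, 2.44 and 2.67 TPM in Col (-0.60 ± 0.12, adjusted p = 7.7e-04). CDF1, a repressor of the photoperiod pathway, was lower in ino80 at 27 °C (-0.49 ± 0.06) with no called difference at 21 °C (0.02, difference between temperatures -0.51, adjusted p = 0.0085). FLC overlaps antisense genes over 6067 bases and the labels do not say that strand was kept, so sense and antisense reads cannot be told apart there.

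Genes of warm-induced growth were called in both directions. Of 27 tested warmth and shade genes, 6 were higher and 4 lower in ino80, shares of the same order as in all genes, with a median of -0.06. PIF7, a growth-promoting factor of the shade and warmth response, was at 18.1, 19.3 and 22.4 TPM in ino80, against 47.1, 47.7 and 47.4 TPM in Col (-1.21 ± 0.08, adjusted p = 3.2e-08). It overlaps a neighbouring gene by 318 bases. PIF4, the main PIF of the warmth response, was not called (0.13), and neither were the auxin synthesis genes YUC8 (-0.15) and TAA1 (0.14). PIF3 (0.44 ± 0.08) and the shade gene PIL1 (0.78 ± 0.12) were higher, and the expansin gene EXPA1 was lower (-0.34 ± 0.05). The 6 higher calls came to 3 without Col replicate 2 or without ino80 replicate 2, and the 4 lower ones to 2 without Col replicate 1.

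Of 23 tested genes of light signalling and thermosensing, 6 were higher, 2 lower and the median was 0.08. The UV-B receptor UVR8 was at 58.0, 58.0 and 59.8 TPM in ino80, against 36.2, 39.5 and 36.5 TPM in Col (0.64 ± 0.05). The blue-light receptors CRY1 (0.48 ± 0.06) and CRY2 (0.41 ± 0.06) and the repressor of photomorphogenesis DET1 (0.50 ± 0.07) were higher, PHYD was lower (-0.60 ± 0.08), and the thermosensor PHYB (0.13) and ELF3 (-0.10) were not called. Of 19 clock genes, 6 were higher and 1 lower (median 0.08). CHE, a repressor of the morning gene CCA1, averaged 50.6 TPM in ino80 and 31.9 TPM in Col (0.65 ± 0.06), and CCA1 and LHY themselves were not called (both -0.02). The 1 lower call among clock genes was lost without any 1 of the 6 libraries.

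Cytokinin response genes were more often lower than higher. Of 17 cytokinin genes tested, 8 were lower and 2 higher in ino80, with a median of -0.27. The type-A response regulators, which cytokinin induces and which damp its signal, accounted for 6 of the 8, namely ARR4 (-0.75 ± 0.06), ARR7 (-0.73 ± 0.09), ARR15 (-0.98 ± 0.14), ARR6 (-0.66 ± 0.09), ARR5 (-0.50) and ARR8 (-0.34). ARR4 was at 51.6, 47.0 and 49.9 TPM in ino80, against 81.0, 88.7 and 82.9 TPM in Col (adjusted p = 1.4e-07). The cytokinin response factor CRF2 was at 25.7, 26.6 and 31.6 TPM in ino80 and at 64.6, 64.9 and 68.9 TPM in Col (-1.22 ± 0.08, adjusted p = 1.2e-08). The receptor gene AHK4 was lower (-0.54 ± 0.08), AHK2 was higher (0.35) and AHK3 was not called (0.03). ARR6 and ARR8 overlap neighbouring genes by 348 and 299 bases, and ARR8 shares a stretch of 95.8% identity with AT2G11620.

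Of 27 brassinosteroid and gibberellin genes, 12 were higher, 2 were lower and the median was 0.20. BR6OX2, which makes active brassinosteroid, was at 39.8, 41.0 and 47.9 TPM in ino80, against 24.99, 22.9 and 24.9 TPM in Col (0.79 ± 0.06, adjusted p = 2.4e-07). CPD, another synthesis gene (0.42 ± 0.05), the brassinosteroid factor BES1 (0.55 ± 0.06), which overlaps a neighbour by 818 bases, the gibberellin receptor GID1A (0.70 ± 0.08) and the gibberellin synthesis gene GA3OX1 (0.72) were higher. So were genes that act against these hormones, the brassinosteroid repressor BIN2 (0.25), the gibberellin repressor RGL3 (0.53) and the gibberellin-inactivating GA2OX1 (0.42). The call of RGL3 was lost without ino80 replicate 1, and that of GA2OX1 without Col replicate 1 or 3 or ino80 replicate 1. The gibberellin repressor RGL2 (-0.78 ± 0.08) and the synthesis gene GA20OX2 (-0.87 ± 0.11) were the 2 lower members. Of 25 auxin response genes, 8 were higher, or 5 without ino80 replicate 2, and 3 were lower (median 0.00), IAA7 being higher (0.40 ± 0.05) and SAUR15 lower at 0.705 TPM in ino80 and 2.91 TPM in Col (-1.22 ± 0.21). Of 15 ethylene genes, 3 were higher, among them the receptor gene ERS2 (0.99 ± 0.10), and 3 were lower, among them EIN2 (-0.52 ± 0.07), with a median of 0.01. Of 24 cell wall expansion genes, 9 were lower and 3 higher (median -0.12), with the expansin gene EXPA15 lower (-0.63 ± 0.07) and XTH24, a xyloglucan-modifying enzyme gene, higher at 246 TPM in ino80 and 128 TPM in Col (0.94 ± 0.06).

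Most genes of nitrate assimilation were lower in the mutant. Of 20 tested nitrate genes (22 listed), 12 were lower, 5 were higher and the median was -0.33. NIA2, the major nitrate reductase, was at 515, 524 and 554 TPM in ino80, against 855, 957 and 907 TPM in Col (-0.77 ± 0.06, adjusted p = 1.5e-07). The nitrite reductase gene NIR1 was at 416, 427 and 442 TPM in ino80 and at 578, 651 and 612 TPM in Col (-0.52 ± 0.06). UPM1, which makes the sirohaem cofactor of nitrite reductase, was at 47.2, 48.5 and 45.8 TPM in ino80 and at 134, 142 and 136 TPM in Col (-1.52 ± 0.06, adjusted p = 2.6e-10). No mutant library of these 3 genes reached the lowest wild-type library, as in 28.0% of all genes. G6PD3, a plastid source of reductant (-1.46 ± 0.07), the glutamate synthase gene GLT1 (-0.55) and the nitrate-induced repressors LBD37 (-0.81 ± 0.07), LBD38 (-0.43 ± 0.05), LBD39 (-0.95 ± 0.11) and HHO1 (-1.11) were lower as well. The 5 higher members included the regulator NLP7 (0.41) and ASN1, an asparagine synthetase gene induced by darkness (0.36). The 5 higher calls came to 3, without that of ASN1, when Col replicate 2 or 3 or ino80 replicate 3 was left out. UPM1 and G6PD3 overlap neighbours by 203 and 315 bases, and GLT1 shares a stretch with AT5G53470.

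NIA1, the other nitrate reductase, changed direction between the temperatures. At 27 °C it was at 163, 165 and 165 TPM in ino80, against 239, 261 and 234 TPM in Col (-0.57 ± 0.07, adjusted p = 2.3e-05). At 21 °C it was at 136, 151 and 139 TPM in ino80, against 95.2, 74.8 and 92.2 TPM in Col (0.70, adjusted p = 3.4e-06). The groups did not overlap at either temperature, and the difference between the temperatures was -1.27 (adjusted p = 2.1e-05).

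Genes of sulfate use and of carbon starvation were more often higher than lower. Of 23 tested genes of sulfate assimilation and low sulfur, 9 were higher and 2 lower, with a median of 0.16. GGCT2;1, which recycles glutathione, averaged 39.0 TPM in ino80 and 18.4 TPM in Col (1.05 ± 0.14), the vacuolar sulfate exporter SULTR4;1 averaged 28.7 and 19.8 TPM in ino80 and Col (0.51 ± 0.07), and APR1, of sulfate reduction, averaged 137 and 98.2 TPM (0.47 ± 0.08). The low-sulfur markers LSU1 (0.01) and SDI1 (-0.21) were not called at 27 °C, although both were higher in ino80 at 21 °C (1.54 and 1.21). Of 21 carbon starvation genes, 8 were higher and 0 were lower, with a median of 0.17, and 5 were higher without Col replicate 3. EXL2, induced when sugar is short, was at 369, 352 and 319.8 TPM in ino80, against 174, 144 and 160.2 TPM in Col (1.12 ± 0.07, adjusted p = 8.2e-09). The sucrose exporter SWEET15 averaged 107 TPM in ino80 and 42.4 TPM in Col (1.32 ± 0.09).

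Jasmonate genes were more often higher than lower. Of 29 tested (35 listed), 13 were higher and 2 lower in ino80, with a median of 0.15. Besides AOC2, AOS, which commits lipid peroxides to jasmonate, averaged 215 TPM in ino80 and 143 TPM in Col (0.59 ± 0.05), and LOX2, the plastid lipoxygenase, averaged 86.2 and 54.0 TPM in ino80 and Col (0.66 ± 0.06). Genes for JAZ repressors of the jasmonate response were also higher, namely JAZ2 (0.41), JAZ3 (0.31), JAZ6 (0.32), JAZ9 (0.43), JAZ10 (0.36) and JAZ12 (0.24). The calls of JAZ10 and JAZ12 were lost in 8 and 3 alternatives. VSP2, a jasmonate-induced storage protein, was at 12.41, 12.99 and 12.93 TPM in ino80, against 3.92, 4.84 and 4.89 TPM in Col (1.32 ± 0.12). Its relative VSP1 went the other way, at 1.62 TPM in ino80 and 4.29 TPM in Col (-1.03 ± 0.17), as did LOX4 (-0.79 ± 0.09). The receptor gene COI1 (0.01) and the cyclase genes AOC1 (-0.08) and AOC3 (-0.24) were not called. Of 15 salicylic acid genes tested (25 listed), 1 was higher, WRKY18 (1.05 ± 0.09), and 3 were lower, SAG101 (-0.92 ± 0.12), PR5 (-0.72 ± 0.11) and EDS5 (-0.57 ± 0.10), with a median of -0.01. EDS5 overlaps a neighbour by 213 bases. The 2 lower calls among jasmonate genes came to 4 without ino80 replicate 2, and the 1 higher call among salicylic acid genes to 2 without ino80 replicate 3.

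Most called glucosinolate genes were lower. Of 26 tested members of this family of sulfur-rich defence compounds, 14 were lower and 4 higher in ino80, with a median of -0.25. ESM1, which steers glucosinolate breakdown to isothiocyanates, was at 32.4, 34.5 and 32.0 TPM in ino80, against 121, 121 and 114 TPM in Col (-1.82 ± 0.08, adjusted p = 2.6e-10). TGG1, the myrosinase that starts the breakdown, was higher at 1004, 1099 and 1092 TPM in ino80, against 597, 606 and 603 TPM in Col (0.82 ± 0.05). On the synthesis side the sulfotransferases SOT16 (-0.51 ± 0.06) and SOT18 (-0.35 ± 0.07), the regulator MYB29 (-0.52 ± 0.10) and the cytochrome P450 genes CYP79B2 (-0.59 ± 0.14), CYP83A1 (-0.95 ± 0.22) and CYP79F2 (-0.75) were lower. The regulator MYB51 was higher (0.78), and CYP79F1 was not called (0.27). The 4 higher calls came to 2 without Col replicate 1 or 3 and to 1 without ino80 replicate 1 or 2. That of MYB51 was lost without Col replicate 2 or ino80 replicate 1 or 2 and with robust eBayes (adjusted p 0.069 to 0.084).

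Flavonoid and anthocyanin genes were more often higher than lower. Of 23 tested flavonoid and anthocyanin genes, 11 were higher and 3 lower, with a median of 0.16. TT19, which carries anthocyanin to the vacuole, was at 92.0, 89.0 and 89.6 TPM in ino80, against 45.3, 44.6 and 38.9 TPM in Col (1.06 ± 0.07, adjusted p = 3.3e-08). DFR, the reductase of the late pathway (0.90 ± 0.07), the glycosyltransferases UF3GT (0.95 ± 0.07) and UGT75C1 (0.99), and the regulator TT8 (1.29 ± 0.11) were higher. So was MYBL2, a repressor of the pathway (1.28 ± 0.11). The flavonoid glycosyltransferase gene UGT78D2 was not called (-0.03) and UGT78D1 was lower (-0.41). Of the earlier enzymes, CHS (0.03), TT5 (-0.01) and F3H (-0.09) were not called and TT7 (0.61) and FLS1 (0.13) were higher, and the regulators EGL3 (-0.66) and GL3 (-0.52) were lower. UF3GT and UGT75C1 are uncertain, by a stretch of 98.5% identity to AT5G08105 and an overlap of 230 bases. The call of GL3 was lost without ino80 replicate 1 (adjusted p = 0.055).

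Cold-regulated genes were higher at the warm temperature. Of 20 tested, 12 were higher in ino80 and 1 was lower, with a median of 0.45. The dehydrin ERD10 was at 1561, 1724 and 1488 TPM in ino80, against 1143, 877 and 981 TPM in Col (0.68 ± 0.08, adjusted p = 9.2e-06). GOLS2, of raffinose synthesis, was at 94.4, 102 and 89.5 TPM in ino80 and at 48.5, 36.7 and 43.9 TPM in Col (1.14 ± 0.11, adjusted p = 1.2e-06). COR47 (0.50 ± 0.07), COR78 (0.47 ± 0.08), KIN1 (0.85), KIN2 (0.45 ± 0.08) and COR15A (0.55) were higher. RD29B, which answers mainly to abscisic acid, was lower (-0.66 ± 0.06). Of the CBF factors that activate these genes, CBF3 was higher (0.44) and CBF1 (0.34) and CBF2 (0.51) were not called. The call of CBF3 was lost without Col replicate 2 or 3 or ino80 replicate 2 (adjusted p up to 0.088). At 21 °C, 10 of the 20 genes were higher in ino80 and 1 was lower (15.4% and 20.5% of all genes), with a median of 0.215. Without Col replicate 2 at 21 °C these counts were again 10 and 1. The test of the difference between the temperatures called 0 of the 20.

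Seed storage genes had a median of 1.2, the largest of the groups of nuclear genes in the plot of gene groups, with 12 of 16 tested (21 listed) higher in ino80 and 1 lower. The cruciferin gene CRA1 was at 50.6, 52.6 and 48.3 TPM in ino80, against 6.31, 6.59 and 7.93 TPM in Col (adjusted p = 2.6e-10), and the albumin gene SESA2 averaged 9.84 TPM in ino80 and 2.11 TPM in Col (1.97 ± 0.31). OLEO1, an oil body protein, was higher (1.32 ± 0.21) while OLEO2 was not called (-0.06), and EM6, a late embryogenesis protein, was lower at 32.8 TPM in ino80 and 48.3 TPM in Col (-0.55 ± 0.15). The call of EM6 was lost without Col or ino80 replicate 1. Of the 7 seed markers, genes that overlap this group, 5 were higher and 1 lower, and they summed to 116.9 to 129.3 TPM in ino80 and 61.84 to 76.98 TPM in Col. With a filter at a mean of 5 TPM, 6 members were called higher. Since whole seedlings were sampled, more cells of a type and more RNA per cell cannot be told apart.

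Of 33 nuclear photosystem and antenna genes, 10 were higher and 5 lower (median 0.08), and 3 of the 5 lower ones, PnsB1, PnsB2 (-0.45 ± 0.06) and PnsL1 (-0.33 ± 0.04), encode NDH complex subunits. PnsB3, another subunit gene, was higher (0.50 ± 0.08) and overlaps a neighbour by 282 bases. The 10 higher calls came to 6 without ino80 replicate 3. CAB2 was higher (0.45 ± 0.09) and CAB3 lower (-0.27 ± 0.06), but each is 96.1% identical to AT1G29930, so reads may be shared between them. Of 21 chlorophyll synthesis genes, 8 were higher and 8 lower (median -0.06). The activator GLK2 averaged 333 TPM in ino80 and 239.7 TPM in Col (0.47 ± 0.05), and the early-pathway gene GSA2 was lower (-0.33 ± 0.05). The 8 higher calls came to 4 without Col replicate 1 or ino80 replicate 3 and to 5 without Col replicate 2. The 8 lower ones came to 3 without Col replicate 2 and to 5 without ino80 replicate 2 or 3.

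Chloroplast-encoded transcripts were higher in the mutant at 27 °C. Of 72 tested chloroplast genes (83 in the table), 68 were higher in ino80 and 1 was lower, with a median log2 fold change of 1.44, and they supplied 54 of the 213 genes that were higher by at least 1. Together they made up 0.257%, 0.244% and 0.208% of the TPM of the ino80 libraries at 27 °C, against 0.101%, 0.0858% and 0.0799% in Col. At 21 °C the shares were 0.191%, 0.145% and 0.147% in ino80, against 0.105%, 0.156% and 0.122% in Col, where Col replicate 2, the library that stood apart, overlapped the mutant range. Of the 72 genes, 38 were higher and 2 lower at 21 °C (15.4% and 20.5% of all genes), with a median of 0.56. Without Col replicate 2 these counts were 34 and 1. The difference was larger at 27 °C for 17 of them and smaller for 0, against 1.09% of all genes called in that direction. ATCG00020 was at 132, 148 and 119 TPM in ino80 and at 38.0, 32.3 and 33.2 TPM in Col at 27 °C (1.91 ± 0.15), and averaged 78.0 and 67.6 TPM in ino80 and Col at 21 °C. Compared with 21 °C, 34 of the 72 were higher at 27 °C in ino80 and 0 were lower, and 0 were higher and 24 lower in Col, in contrasts that share libraries with the others. Those contrasts called 15.2% of all genes higher and 16.8% lower in ino80, and 18.5% lower in Col. The count of 17 was 11 with no filter on low TPM and 10 with robust eBayes. The chloroplast shares of TPM were small, and whether library preparation captured chloroplast RNA alike in all libraries was not tested. Of 17 tested mitochondrial genes, 5 were higher and 1 lower.

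**Figure D4:**
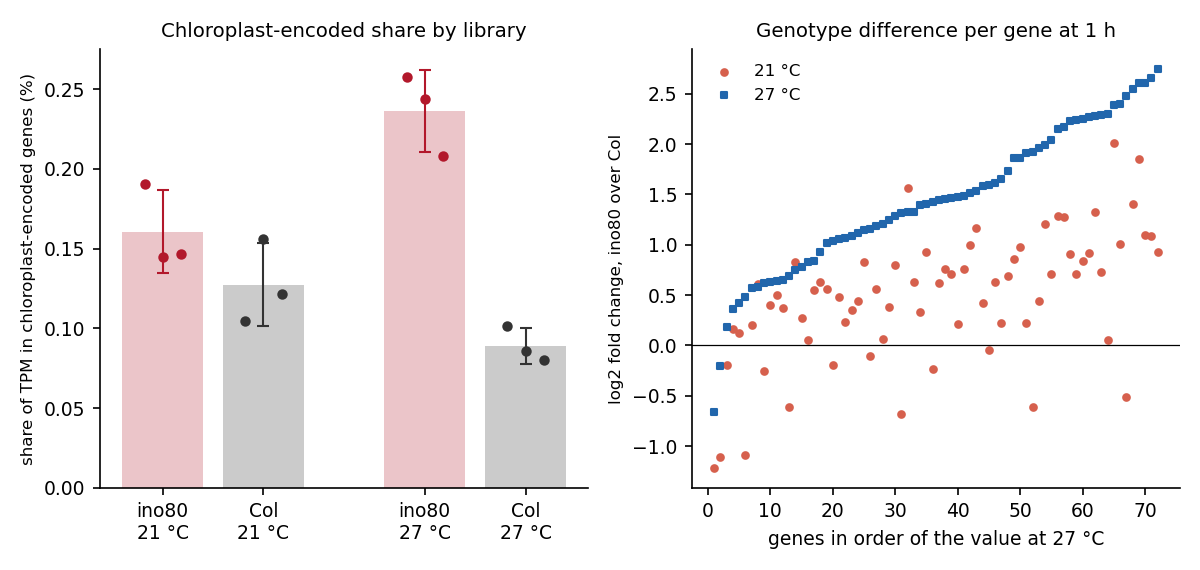
Left, percent of the TPM of each 1 h library in chloroplast-encoded genes, with bars at the mean, the SD as error bars (n = 3) and points for libraries; the ino80 libraries at 27 °C lie highest and the Col libraries at 27 °C lowest. Right, log2 fold change of ino80 over Col for each of 72 chloroplast genes at 21 °C (circles) and 27 °C (squares), in order of the value at 27 °C, where the median is 1.44 against 0.56 at 21 °C.

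Most of what separated ino80 from Col at 27 °C also separated them at 21 °C, in libraries that are not shared between the temperatures. Of the genes higher at 27 °C, 2087 were higher at 21 °C, which is 63.7% of the genes higher at 27 °C and 70.7% of those higher at 21 °C. Of the lower genes, 2622 were lower at both, 67.1% and 66.7% of those lists. Of the 435 genes with a difference of at least 1 at 27 °C, 393 were called in the same direction at 21 °C, and without Col replicate 2 at 21 °C 397 of 441. Another 2424 genes were called at 27 °C and not at 21 °C, but for 98 of them the test of the difference between the temperatures passed. That test called 361 of all genes (1.88%), 209 with a larger value at 27 °C and 152 with a smaller one. Without Col replicate 2 at 21 °C the split turned, to 214 and 225, and without Col replicate 1 at 21 °C it was 271 and 138. The count rested on single libraries, as it was 186 to 215 without Col replicate 2 or 3 or ino80 replicate 1 or 2 at 27 °C, and 199 without Col replicate 3 at 21 °C. Of 50 genes called in opposite directions at the temperatures, 49 passed the test. That is close to given, since the test is built from the same 2 differences.

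Among the groups of nuclear genes, early touch and wound genes had the most members with a called difference between 27 °C and 21 °C. At 27 °C, 6 of 22 tested were higher, 3 were lower and the median was 0.06, while at 21 °C 0 were higher, 14 were lower and the median was -0.44. The difference passed the test for 8 of them, each with the larger value at 27 °C, and for 5 nitrate genes and 4 genes each of the sulfate, cytokinin and jasmonate groups. Without Col replicate 2 at 21 °C the count for touch and wound was again 8. WRKY40, a wound- and pathogen-induced factor, was at 1.00, 1.14 and 0.766 TPM in ino80 and at 3.05, 2.23 and 2.22 TPM in Col at 27 °C (-0.82 ± 0.14). At 21 °C it was at 1.16, 0.983 and 1.07 TPM in ino80 and at 12.2, 8.82 and 8.62 TPM in Col (-2.38). In contrasts that share these libraries, 27 °C minus 21 °C was -0.08 for WRKY40 in ino80 (adjusted p = 0.72) and -1.63 in Col. ZAT10, a zinc finger factor, was higher in ino80 at 27 °C, with 18.1, 21.5 and 15.4 TPM in ino80 against 14.4, 13.4 and 11.1 TPM in Col (0.46 ± 0.11). At 21 °C it was lower, with 21.9, 20.4 and 25.1 TPM in ino80 against 43.6, 39.6 and 37.0 TPM in Col (-0.81; difference between temperatures 1.27, adjusted p = 6.9e-04). WRKY40 shares a stretch of 96.0% identity with AT3G32090. The 6 higher calls at 27 °C came to 1 without ino80 replicate 2 and to 3 without Col replicate 2 or ino80 replicate 1, and the 3 lower ones to 1 without Col replicate 1 or 3 or ino80 replicate 3.

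Of the cytokinin response regulators, 4 were nearer to Col at 27 °C than at 21 °C. ARR15 was at 1.36, 0.699 and 1.28 TPM in ino80, against 3.41, 2.99 and 3.02 TPM in Col at 27 °C, and at 0.510, 0.869 and 0.777 TPM in ino80, against 6.23, 7.19 and 7.07 TPM in Col at 21 °C. The difference between the temperatures was 1.21 (adjusted p = 0.0042), and ARR7 (0.57), ARR6 (0.65) and ARR5 (0.61) passed the test as well. The 5 nitrate genes had a more negative value at 27 °C, namely NIA1, G6PD3 (-0.70), ASN2 (-0.59), NIR1 (-0.48) and NIA2 (-0.36). ESM1 was also further below Col at 27 °C than at 21 °C, by -0.60 (adjusted p = 0.0098). The call of the difference was lost in at least 1 leave-out for ARR7 (8 of 12), ARR5 (7), ARR6 (3) and NIA2 (10), with adjusted p up to 0.124. The plot of these genes at the 2 temperatures shows the starred touch and cytokinin genes farther right at 27 °C and the starred nitrate genes farther left.

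**Figure D5:**
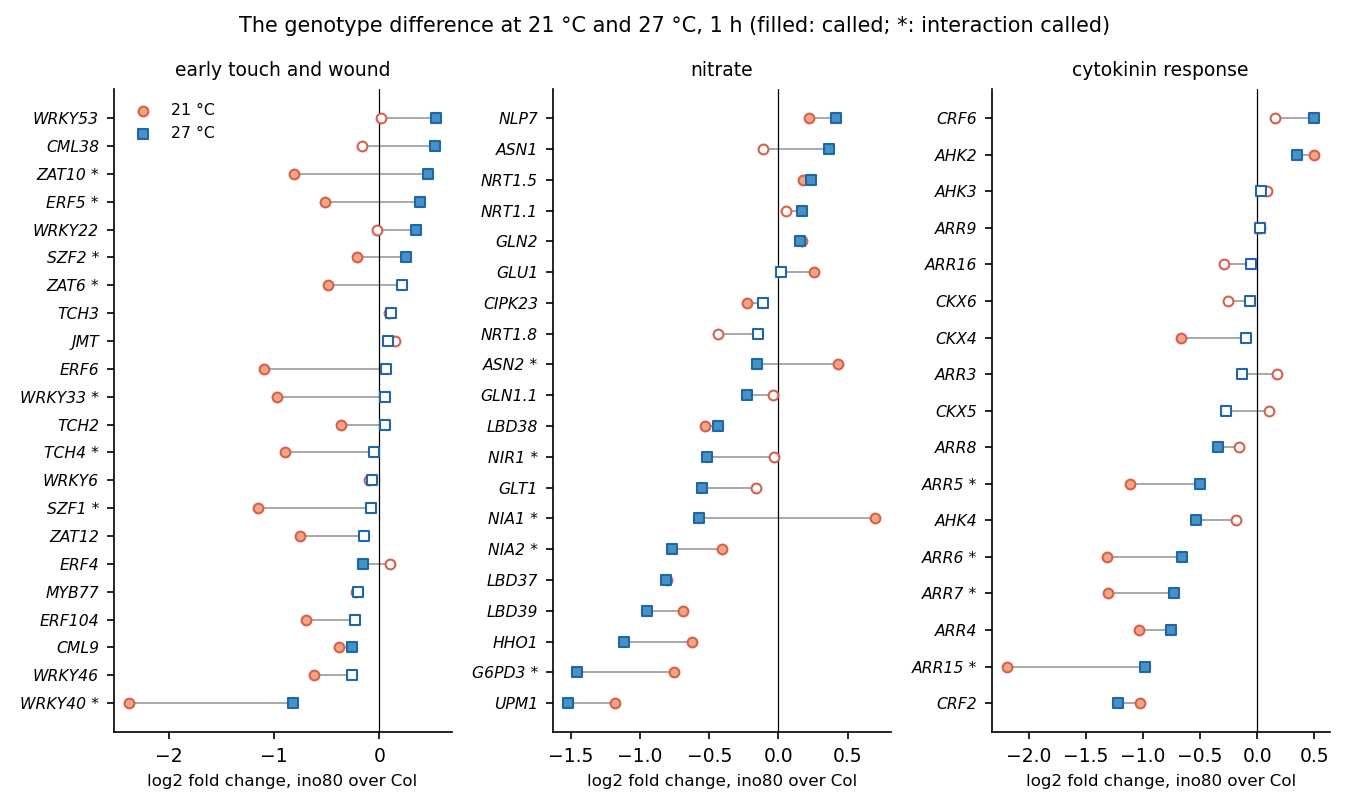
Log2 fold change of ino80 over Col at 21 °C and at 27 °C for each tested gene of early touch and wound, nitrate and cytokinin response, joined by a line. Filled points were called, and a star marks a called difference between the temperatures, as for WRKY40, ZAT10, NIA1 and ARR15.

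After 12 h at 27 °C, in separate libraries and a separately scaled table, 5916 of 19578 genes (30.2%) were called, 3660 higher in ino80 (18.7%) and 2256 lower (11.5%). With median-of-ratios scaling these were 2702 and 3239. Among 18827 genes tested at both times, 1441 were higher at both, 44.9% of those higher at 1 h and 40.8% of those higher at 12 h. Lower at both were 1104, 28.8% and 50.3%, and 171 higher and 253 lower genes at 1 h were called in the opposite direction at 12 h. The difference between the times was not tested.

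Heat shock genes were not lower at 12 h. Then, 0 of the 26 chaperone and factor genes were lower in ino80 and 14 were higher, with a median of 0.34. HSP90.1 averaged 31.4 TPM in ino80 and 15.98 TPM in Col at 12 h (0.93), HSP70-4 56.9 TPM in ino80 and 34.6 TPM in Col (0.69), and HSP90.2, not called, 143.4 TPM in ino80 and 138.1 TPM in Col (0.06). Of 33 nuclear photosystem genes, 22 were lower and 0 higher at 12 h, and of 27 glucosinolate genes 13 were higher and 3 lower. AOC2 (1.29), FLC (1.38), PnsB1 (-3.40), ESM1 (-2.58), PIF7 (-1.49), NIA2 (-0.83), ARR6 (-0.90), TT19 (1.99) and CRA1 (2.03) had the same direction at 12 h as at 1 h, and all were called.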

How the data were processed

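Per the labels, libraries of whole-seedling RNA were made with a NEBNext Ultra kit. The authors deposited TPM values in 2 tables of 12 libraries, 1 for each time, and the lengths, filters and strand use behind them are not given in the sources used here. Build TAIR10 and the tools fastp 0.20.1, HTSeq 0.11.2, HISAT2 2.1.10 and DESeq2 1.26.0 stand in the submitters' processing notes.

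Each table was fitted alone with limma 3.58.1 (R 4.3.3) on log2(TPM + 1), with 4 group means, eBayes with a trend, and two-sided tests adjusted by Benjamini-Hochberg over genes with at least 1 TPM in 3 or more libraries. Fragments per library were estimated from the steps between low TPM values. The fit was tested on simulated data.

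Named genes were INO80, the 12 largest called differences in each direction (at least 5 TPM in the higher group, no overlap of groups), the 6 strongest called members of each list, other members with their values, and the 6 largest differences between temperatures in each direction. The members and lists were chosen with earlier results of these data known. Symbols, gene overlaps and near copies (at least 95% identity over 100 bases) come from RefSeq's TAIR10.1, which held 23241 of the 23390 genes.

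Alternatives were pseudocounts of 0.1 and 5, other filters, median-of-ratios and quantile scaling, removal of organelle genes, robust eBayes, a fit of the 6 libraries alone, a replicate block and leaving out each library. Counts of list members and single differences between temperatures under these, and 21 °C results without Col replicate 2, were added after seeing the data. Same-numbered replicates of the genotypes did not deviate together (r of deviations -0.05 to 0.00 at 27 °C).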

Additional observations from a re-analysis of the deposited data

Results flagged for a closer look

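The genotype difference depended on temperature for 361 of 19190 genes, by limma's test of the difference between the ino80 minus Col value at 27 °C and at 21 °C. The values below are that difference on the log2 scale, with a positive one where ino80 stood higher against Col at 27 °C than at 21 °C.

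The 6 largest positive values among called genes with a mean of at least 5 TPM in the highest group were those of the chloroplast genes ATCG00350 (2.99), ATCG00270 (2.24), ATCG01120 (1.999), ATCG00020 (1.69) and ATCG01110 (1.64) and of the nuclear gene AT1G07135 (1.70). The calls of ATCG01120 and ATCG01110 were lost in 11 alternatives each (adjusted p up to 0.114 and 0.104), and both were low in Col at 27 °C (1.39 and 1.43 TPM). The 6 largest negative ones were those of AT1G12030 (-2.47), the low-sulfur markers LSU1 (-1.52) and SDI1 (-1.42), TRM13 (-1.29), the nitrate reductase gene NIA1 (-1.27) and EXO (-0.99). At 27 °C AT1G12030, LSU1 and SDI1 were low in both genotypes, averaging 1.16, 1.99 and 1.52 TPM in ino80 and 0.777, 1.97 and 1.95 TPM in Col. Their difference was at 21 °C, at 12.0, 21.4 and 40.1 TPM in ino80 and 0.924, 6.67 and 16.8 TPM in Col. EXO, a gene of brassinosteroid-promoted growth, was at 32.2, 36.9 and 36.3 TPM in ino80 at 27 °C, against 63.4, 68.7 and 70.7 TPM in Col, while its difference at 21 °C was 0.07.

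Among the genes named in their groups, positive values were found for the touch and wound genes WRKY40 (1.55), ZAT10 (1.27), ERF5 (0.91) and SZF2 (0.46), the response regulators ARR15 (1.21), ARR6 (0.65), ARR5 (0.61) and ARR7 (0.57), the ethylene synthesis gene ACS6 (0.86), MCCA (0.54), the clock gene CHE (0.51) and the brassinosteroid gene BR6OX2 (0.41). Negative ones were found for the jasmonate genes LOX2 (-0.72) and AOS (-0.35), the nitrate genes G6PD3 (-0.70), ASN2 (-0.59), NIR1 (-0.48) and NIA2 (-0.36), the glucosinolate gene ESM1 (-0.60), the chaperones HSP90.1 (-0.57) and HSP90.2 (-0.34), the flowering gene CDF1 (-0.51) and the anthocyanin gene DFR (-0.48). Of these 35 genes, the 12 above included, 21 were called in every alternative run and 14 were not, and 0 changed sign.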

How the results depend on the processing

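The count of genes called at 27 °C was 7183 and ranged from 5845, with a mean TPM of at least 5, to 8038, with only the 6 libraries of the contrast. Leaving out 1 library gave 5939 to 6203, and asking for a difference of at least 1 gave 435. Median-of-ratios scaling moved the split to 3973 higher and 3756 lower and quantile scaling to 3805 and 3920. At 21 °C median-of-ratios scaling gave 3678 higher and 3549 lower, and at 12 h 2702 and 3239. The count for the difference between temperatures was 361, ranged from 186 to 439 when 1 library was left out and was 247 when genes of low TPM were kept. Without Col replicate 2 at 21 °C, which stood apart, 21 °C had 3330 higher and 3282 lower genes, against 2950 and 3930 with it. Of 355 called genes checked singly at 27 °C, 253 were called under every alternative, 102 were lost in at least 1 and 0 reversed. The cause was not tested.

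With the replicate number as a block, 7429 genes were called at 27 °C, 3386 higher and 4043 lower, and 363 for the difference between temperatures. Same-numbered replicates of the genotypes did not deviate together within a temperature. With 3 libraries per group this cannot show that the numbers carry no pairing, and same numbers across temperatures were not compared.

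The ino80 libraries at 27 °C were shallower than the Col libraries, which limits precision for genes of low expression, and 26.1% of genes under 1 TPM were called.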

Other observations

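The genes here were chosen after their values were seen. Most genes examined in 2 clusters that make root triterpenes, thalianol and marneral, were lower in ino80 at 27 °C. THAS1, the thalianol synthase gene, was at 7.66, 9.48 and 7.17 TPM in ino80, against 21.2, 19.0 and 20.3 TPM in Col (-1.22 ± 0.12, adjusted p = 1.9e-06). Its neighbours CYP708A2 (-1.21 ± 0.12) and CYP705A5 (-1.15 ± 0.14), which modify thalianol, were lower as well, as was AT5G47980 (-0.79), while AT5G47950 was not called (-0.19, adjusted p = 0.226). At 12 h THAS1, CYP708A2 and CYP705A5 were not called (0.05, 0.25 and 0.51). In the marneral cluster CYP705A12 was at 3.297, 4.996 and 2.74 TPM in ino80, against 14.98, 13.6 and 14.1 TPM in Col (-1.73 ± 0.15). CYP705A12 was still called lower at 12 h (-0.67, adjusted p = 0.029). CYP71A16 was lower at 1 h (-0.52) and higher at 12 h (0.92, adjusted p = 0.0049), and the synthase gene MRN1 was not called at 1 h (-0.33, adjusted p = 0.052) but was called in 4 alternatives. Of 159 tested genes annotated as cytochrome P450, 37 were higher and 58 lower (17.1% and 20.4% of all genes), with a median of -0.14. By at least 1, 13 were lower and 5 higher (1.16% and 1.11% of all genes). The set includes the P450 genes of the clusters above. Of the 9 tested root markers 4 were lower and 1 was higher (20.4% and 17.1% of all genes). The summed root markers were higher in ino80, at 2038 to 2142 TPM against 1721 to 1881 TPM in Col. The part of root tissue in these values was not tested.

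Among genes that differed by at least 1 at 27 °C, 22 lay in 9 runs of adjacent tested genes of 1 direction, and 3 runs held at least 3 genes. The longest was of the seed albumin genes SESA1 to SESA4, all higher. The calls of SESA3 and SESA4 were lost with robust eBayes and without Col replicate 2. That of SESA4 was also lost without Col replicate 1 or ino80 replicate 3 (adjusted p up to 0.103). Another was AT5G46940 (2.06 ± 0.21), AT5G46950 (1.65 ± 0.23) and AT5G46960 (2.27 ± 0.13), all higher, of which AT5G46950 was listed at 0 in 1 Col library. The neighbours GSTF7 and GSTF6, glutathione transferase genes induced by stress and salicylic acid, were uneven. GSTF7 was at 115, 152 and 55.4 TPM in ino80, against 28.7, 24.1 and 28.4 TPM in Col (1.84 ± 0.64, adjusted p = 0.035). Their widest spread was at 21 °C in Col, where GSTF7 was at 19.7, 243 and 21.5 TPM and GSTF6 at 13.5, 164 and 11.5 TPM, libraries that enter the same fit. This call and that of GSTF6 (1.94 ± 0.66) were lost in 7 alternatives. At 12 h they were higher by 2.86 and 3.23.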
